A study of Mus musculus with 4 samples.

Results

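The 4 Dlg genes and the 4 Dlgap genes were followed through single-nucleus RNA counts of the mouse cortex. The members were the 8 rows of the count matrices that carry the symbols Dlg1, Dlg2, Dlg3, Dlg4, Dlgap1, Dlgap2, Dlgap3 and Dlgap4, out of 32285 genes in all. The study asked what a course of risperidone, an antipsychotic that blocks dopamine and serotonin receptors, given in adolescence leaves in the adult cortex. C57BL/6J wild-type mice were injected intraperitoneally every day with risperidone at 4 mg/kg, or with saline as the control, starting on postnatal day 22 and going on for 21 days. After a washout of several weeks without injections the cortex was taken at postnatal day 90. Tissue of male and female mice of a condition was combined in 1 pool before the nuclei were isolated and sorted on DAPI, and each pool was loaded on 2 lanes of a 10x Chromium chip. The lanes are technical repeats of 1 pool, so each condition had 1 sample. No test between the conditions was possible, and none was run. A lane-to-lane spread covers the loading and sequencing of 1 pool and says nothing about the spread between mice.

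The Dlg genes encode the membrane-associated guanylate kinases of the synapse: Dlg1 encodes SAP97, Dlg2 encodes PSD-93, Dlg3 encodes SAP102 and Dlg4 encodes PSD-95. Each protein carries PDZ domains that hold NMDA receptors, AMPA receptor auxiliary subunits, potassium channels and neuroligins in the membrane, and a guanylate kinase domain that lacks enzyme activity and binds other proteins. The Dlgap genes encode the GKAP or SAPAP proteins, which bind that domain and link it to the Shank proteins deeper in the postsynaptic density. In the cortex PSD-95 is the best known organiser of excitatory synapses, SAP97 also takes part in the transport of AMPA receptors, and PSD-93 clusters potassium channels in axons as well.

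The 8 genes are spread over 8 chromosomes, all on the plus strand, and differ greatly in length (positions in GRCm38, GENCODE vM21). Dlg1 lies at chr16:31663443-31875129 and Dlg2 at chr7:90476672-92449247. Dlg3 lies at chrX:100767722-100818410 and is the X-linked member, and Dlg4 lies at chr11:70016942-70047522. Dlgap1 lies at chr17:69969073-70821413, Dlgap2 at chr8:14095865-14847680, Dlgap3 at chr4:127169204-127237022 and Dlgap4 at chr2:156613705-156764363. Dlg2 spans 1973 kb and Dlg4 30.6 kb. Intronic reads were counted in these nuclei, so a level is compared between genes only after division by the gene's span, and levels are given in CPM, the UMIs (counted RNA molecules) of a gene scaled to the same total of UMIs in each class and lane.

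All 4 lanes were deep enough to count every member. The lanes listed 23450 to 29986 nuclei and held 119736937 to 203675013 UMIs, with the risperidone lanes deeper in UMIs per nucleus (median 5648 and 7766) than the saline lanes (3297 and 4049). The saline lanes listed no nucleus under 1364 UMIs, whereas the risperidone lanes listed nuclei down to 500 UMIs. Dlg2 held 4928807 UMIs over the 4 lanes and ranked 9 among all genes, Dlgap1 held 2005612 and Dlgap2 held 1598826. At the other end Dlg3 held 29578 UMIs and Dlg4 69985. Pairs of lanes shared between 160 and 221 cell barcodes, within 1 condition and between conditions alike. By sex-linked RNA 37.7% and 39.1% of the nuclei in the saline lanes were called female, against 49.8% and 48.8% with risperidone, and 17.9% to 19.5% of each lane were called male. The share of nuclei with no call was thus lower in the deeper risperidone lanes, and the part of depth in the calls was not tested. Markers that a class should lack gave an estimate of the RNA of other cells mixed into it. In glutamatergic nuclei this was 27.1% of the UMIs in saline and 16.6% in risperidone. Its part in the differences below was not tested, and values after subtraction of the estimate are given for some of them.

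Nuclei were classed by clusters made without the 8 members. Glutamatergic nuclei numbered 58522, of which 7 types could be named (IT, ET, NP and CT stand for intratelencephalic, extratelencephalic, near-projecting and corticothalamic neurons), from 15824 L2/3 IT nuclei to 1051 claustrum-like nuclei. PV-INs (parvalbumin interneurons) numbered 3348, Sst-INs (somatostatin interneurons) 2510, Vip-INs 2534, Lamp5-INs 1625 and striatal projection neurons (SPNs) 2629. Among non-neuronal nuclei 4313 were astrocyte-like, 1849 oligodendrocyte-like and 2219 OPC-like, and the 195 microglia-like nuclei included too few from saline (15 and 14 per lane) to be compared. The PV-IN cluster held the highest level of 6 of the 7 PV-IN markers, and the Sst-IN cluster of 6 of the 7 Sst-IN markers. The L2/3 IT cluster had 5 of its 6 markers raised above the median cluster, but none of the 6 was highest there. Markers highest in their own type were also few in deep-layer IT (1 of 6), L4/5 IT (2 of 6) and L6 CT nuclei (2 of 6). They were 4 of 7 in L5 ET, 4 of 5 in claustrum-like and 6 of 6 in NP nuclei.

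Per kilobase of span the members fell into a high and a low group in glutamatergic nuclei. Dlg2 stood at 4.07 CPM per kb, Dlg4 at 3.86, Dlgap1 at 3.57, Dlgap2 at 3.56 and Dlgap3 at 3.19, averaged over the 4 lanes. Dlg1 at 1.89, Dlgap4 at 1.74 and Dlg3 at 0.93 CPM per kb were lower. The order within each group depended on the condition. In saline Dlg4 came first at 4.29 CPM per kb, above Dlgap2 (3.94), Dlgap1 (3.92) and Dlg2 (3.90), and in risperidone Dlg2 stood at 4.23 and Dlg4 at 3.43. Dlg1 stood at 1.43 and Dlgap4 at 1.93 in saline, against 2.35 and 1.56 in risperidone. Dlg3 was the lowest of the 8 in both. On the same scale PV-INs led with Dlgap1 at 7.55 CPM per kb, and Dlg1 stood at 0.78 there.

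**Figure D1:**
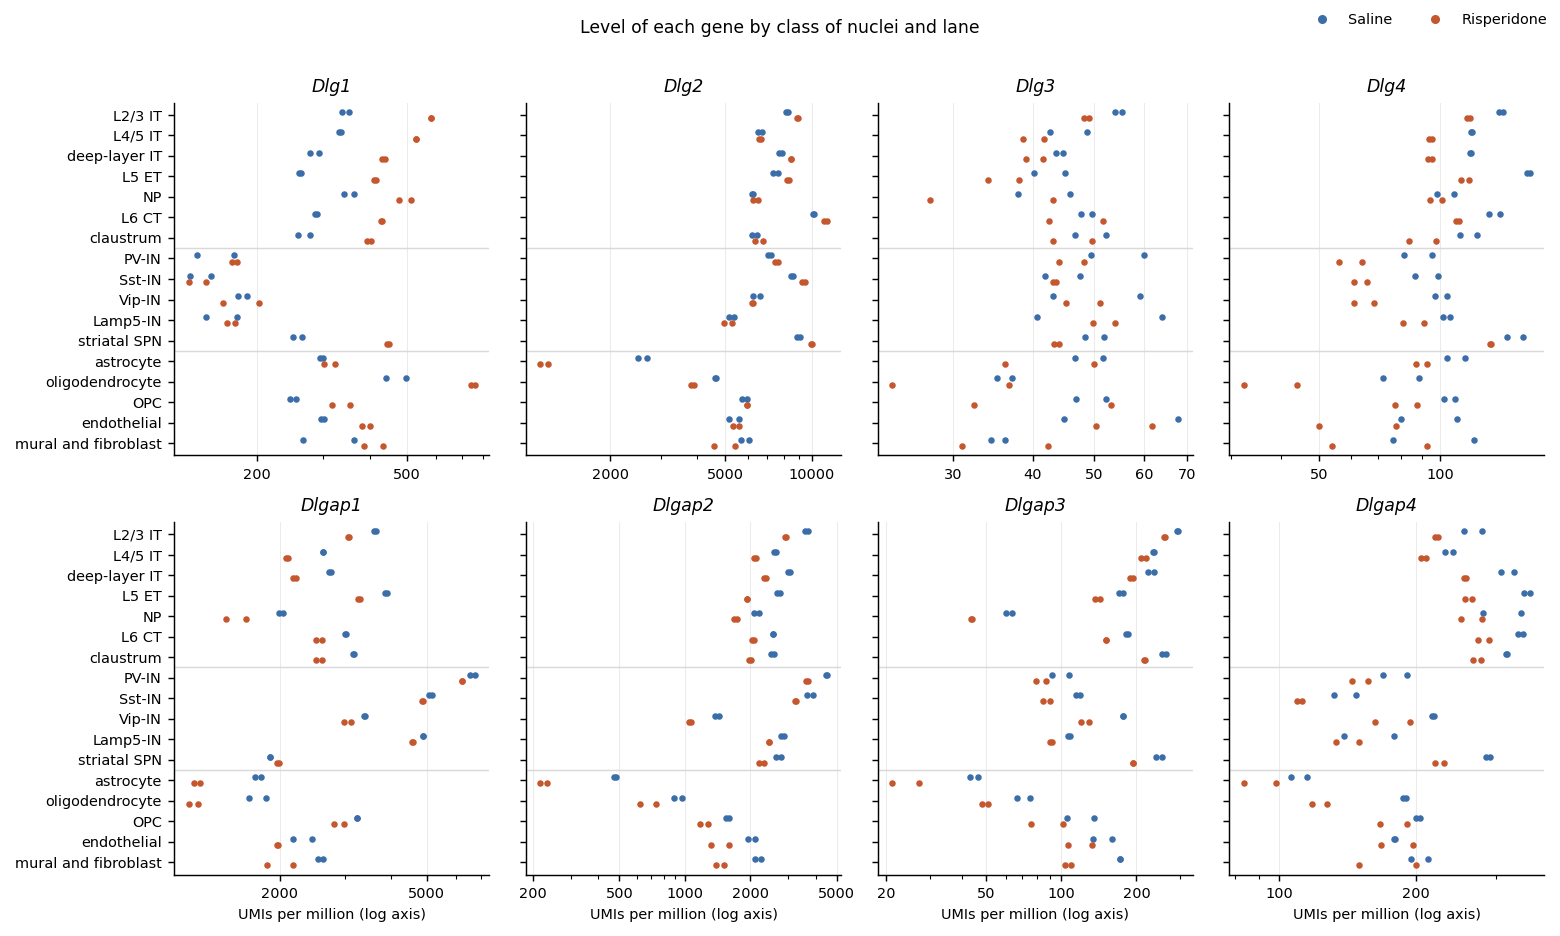
Level of each member (CPM, log axis) in 17 classes of nuclei, with 1 point for each of the 4 lanes, blue for saline and orange for risperidone. Dlg1 is lowest in the 4 interneuron classes. Its orange points lie right of the blue ones in the glutamatergic types, SPNs and oligodendrocyte-like nuclei, and also in OPC-like and endothelial-like nuclei. Dlgap1 and Dlgap2 are highest in PV-INs.

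Each member had its own pattern over the classes. Dlg1 was low in every interneuron class: its means over the lanes were 140 CPM in Sst-INs, 165 in PV-INs, 166 in Lamp5-INs and 183 in Vip-INs, against 331 to 462 CPM in the 7 glutamatergic types. The highest mean, 610 CPM, was in oligodendrocyte-like nuclei. The lanes of the 4 interneuron classes (132 to 202 CPM) did not overlap those of any other class compared. The lanes of Sst-INs and Vip-INs did not overlap each other, and those of PV-INs and Lamp5-INs overlapped both.

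Dlg2 was highest in L6 CT nuclei, at 10067 to 11266 CPM, above the 8871 to 9976 CPM of SPNs. From SPNs down to L5 ET nuclei the lanes of neighbouring classes overlapped. Dlg2 was lowest in astrocyte-like nuclei, at 1147 to 2685 CPM. Dlg3 varied least among the neuronal classes, and its means ran only from 38.6 CPM in NP nuclei to 52.0 CPM in Lamp5-INs. Dlg4 had its highest mean in L5 ET nuclei in saline (166 CPM, against 154 in SPNs) and in SPNs in risperidone (134 CPM, against 118 in L2/3 IT and 116 in L5 ET nuclei), and means over all lanes of 74.1 to 94.8 CPM in the 4 interneuron classes.

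The Dlgap genes differed in where they were highest. Dlgap1 was highest in PV-INs, at 6219 to 6762 CPM and above every other class in every lane, followed by Sst-INs at 4840 to 5179 CPM. Its means were 3223 CPM in Vip-INs and 1928 CPM in SPNs, below the 3572 CPM of L5 ET nuclei. Dlgap2 had a mean of 4071 CPM in PV-INs and 3499 CPM in Sst-INs, and of 1235 CPM in Vip-INs. Dlgap3 stood at 276 CPM in L2/3 IT nuclei, 91.6 CPM in PV-INs and 220.3 CPM in SPNs. Dlgap3 also set the layer types apart more than any other member: NP nuclei held 52.9 CPM, and in saline the L2/3 IT level was 4.72 times the NP level. Dlgap4 ranged from 222 CPM in L4/5 IT to 311 CPM in L6 CT nuclei and had 125 CPM in Sst-INs and 257 CPM in SPNs.

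Correlation of log2(CPM + 1) over 17 classes, with the saline and the risperidone mean as separate points (34 points, which share pools and lanes), named the genes with the most similar pattern. For Dlg1 these included Dennd4a (r = 0.86) and Psd3 (0.83). For Dlg2 they were Cdr1os (0.93), Csrnp3 (0.91) and Gm45159 (0.91), the last of which lies inside Dlg2 on the same strand, so that reads may be split between them. For Dlg3 they were Cops7b (0.70), Ptprg (0.67) and 2510002D24Rik (0.66). For Dlg4 they were Speg (0.86), Ccdc57 (0.85) and Dpf1 (0.85). Dlgap1 was most like Tbc1d9 (0.84), Gm15396 (0.83) and Stau2 (0.82), and Dlgap2 most like Ttll11 (0.96), Atp8a2 (0.94) and A730060N03Rik (0.92). Dlgap3 was most like Camk2a (0.91), Cacng3 (0.88) and Shank2 (0.88), which encode a kinase, an AMPA receptor auxiliary subunit and a scaffold of the same postsynaptic density. Dlgap4 was most like Unc5a (0.91), Arpp21 (0.89) and Matk (0.89). Between members the closest pair was Dlg2 with Dlgap2 (r = 0.84), and Dlg1 with Dlgap1 had r = -0.76. The points include astrocyte-like and vascular classes, where levels of some members are read below as background. No correlation without these classes is given.

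The RNA of other cells set how much of a level belongs to a class. In PV-INs the UMIs expected from other cells came to 0.57 of the Dlg1 UMIs counted in saline and 0.53 in risperidone, and in Sst-INs to 0.64 and 0.54, so the low interneuron level of Dlg1 is an upper limit. For Dlgap1 in PV-INs the same ratio was 0.16 and 0.10. In astrocyte-like nuclei fewer UMIs were counted than expected from other cells for Dlg2 (ratio 1.31 and 2.14), Dlgap2 (2.72 and 3.21) and Dlgap3 (2.08 and 2.37), and their levels there are read as background. A ratio above 1 also means that the estimate is too high for that gene in that class, so the estimated shares are rough. Dlg1 in oligodendrocyte-like nuclei had a ratio of 0.28 in saline and 0.23 in risperidone. In the endothelial-like class the ratio was 1.16 or more for 6 of the 8 members in saline, and member levels of the vascular classes are not read as their own.

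**Figure D2:**
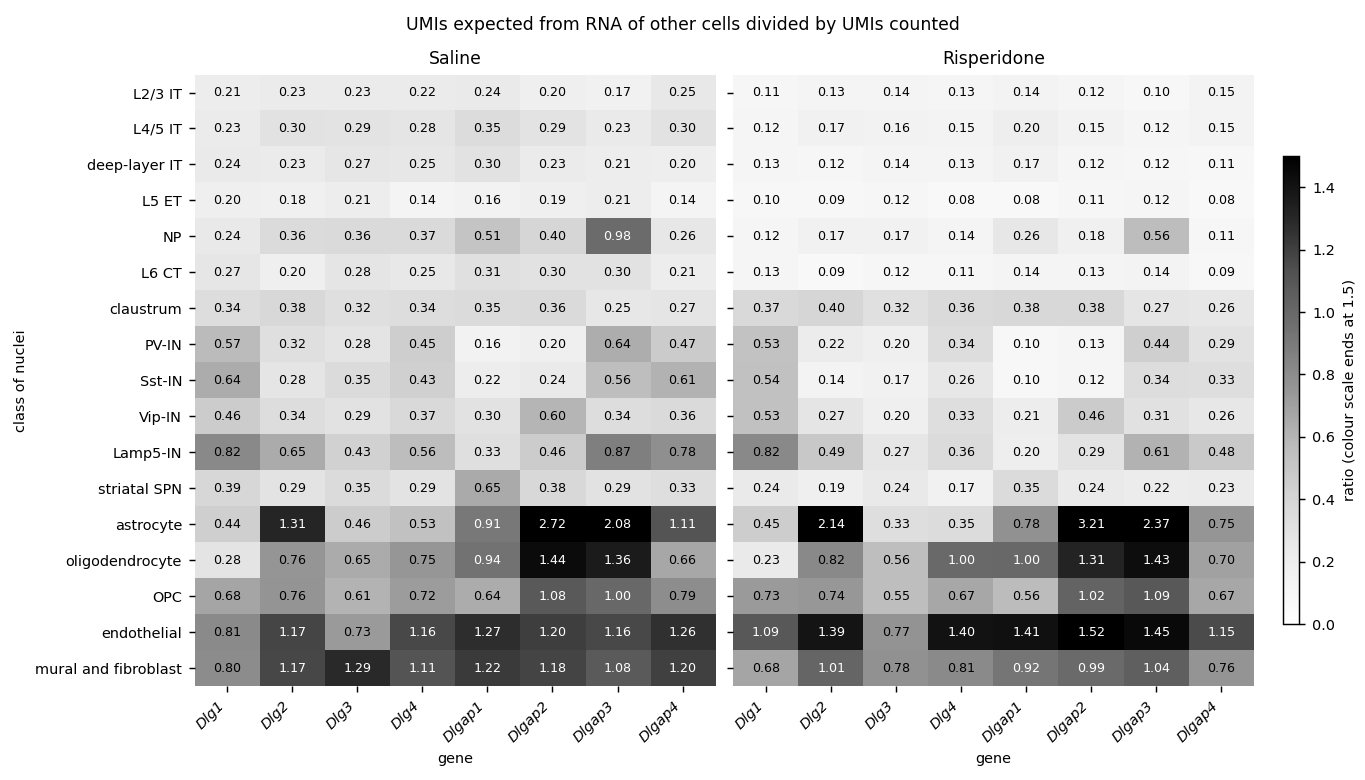
UMIs expected from RNA of other cells divided by the UMIs counted, for each member and class, in saline and in risperidone; darker cells hold more background. Dlgap1 in PV-INs lies at 0.16 and 0.10, whereas Dlg2, Dlgap2 and Dlgap3 in astrocyte-like nuclei lie at 1.31 or more in both conditions.

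In glutamatergic nuclei Dlg1 was the member that was higher after risperidone. It stood at 299 and 306 CPM in the saline lanes and at 499 and 498 CPM in the risperidone lanes. Both risperidone lanes lay above both saline lanes. The fold change from the UMIs of each pool, scaled by TMM, was 1.56 (log2 0.64, 95% interval of counting error 0.62 to 0.65), and the 4 pairs of lanes gave log2 values from 0.60 to 0.67. A size rule was used in place of a test: a log2 fold change of at least 0.5 in size, a mean of at least 10 CPM, and both risperidone lanes beyond both saline lanes. Dlg1 was the only member of 8 past the rule among the glutamatergic nuclei, and 4.22% of the 7197 genes measured there were past it in the upward direction. The glutamatergic sum joins 13 clusters whose numbers of nuclei differed with the condition. In 1 of them there were 828 and 690 in the saline lanes against 168 and 140 in the risperidone lanes, and in another 472 and 480 against 113 and 101. The L2/3 IT cluster went the other way, from 3719 and 3767 to 4344 and 3994. The 2 clusters that shrank have no layer-type name, and whether all 13 are cortical was not tested. With the clusters weighted equally the Dlg1 value was 0.51, and that of Dlgap3 was -0.35.

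The other Dlg genes were not past the size rule. Dlg4 stood at 131 and 131 CPM in saline and at 105 and 106 CPM in risperidone, a log2 fold change of -0.40 (-0.43 to -0.38). Dlg3 stood at 49.9 and 48.6 CPM in saline and 45.4 and 43.9 CPM in risperidone, with a log2 fold change of -0.23 (-0.27 to -0.18). Dlg2 stood at 7649 and 7746 CPM in saline and 8300 and 8400 CPM in risperidone. After TMM scaling this was a log2 fold change of 0.03, with lane pairs from -0.0019 to 0.07, and it was the only member whose lanes overlapped between the conditions on that scale. With plain CPM in place of TMM it was 0.12.

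All 4 Dlgap genes had log2 fold changes below 0, none past the size rule. Dlgap1 stood at 3330 and 3355 CPM in saline and 2735 and 2756 CPM in risperidone (log2 -0.37). Dlgap2 stood at 2982 and 2939 CPM against 2374 and 2414 CPM (log2 -0.39), with -0.50 in nuclei called female, past the size rule, and -0.21 in male nuclei. Dlgap4 stood at 297 and 283 CPM against 233 and 237 CPM (log2 -0.38), and Dlgap3 at 227 and 227 CPM against 204 and 208 CPM (log2 -0.22). No member was past the size rule in the downward direction, which 7.27% of measured genes were. With the 4.22% upward, 1 of 8 members past the rule lies near the share of all measured genes. The median over the 8 members was -0.30, against -0.02 over all genes measured. Lanes of the conditions did not overlap for 7 of 8 members, as for 89.8% of all measured genes, so that separation of lanes alone sets no gene apart.

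**Figure D3:**
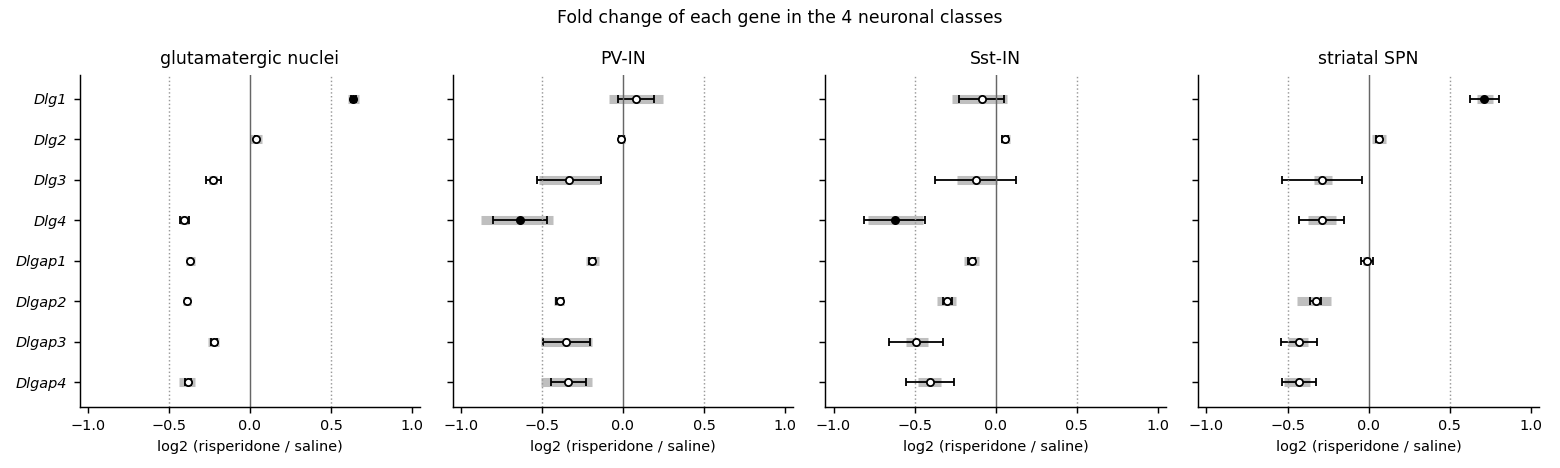
log2 fold change (risperidone over saline) of each member in 4 neuronal classes. Points are the pooled values, filled where past the size rule (dotted lines at 0.5), black bars the 95% counting interval and grey bars the range over the 4 pairs of lanes; Dlg1 is at 0.64 in glutamatergic nuclei and 0.71 in SPNs, and near 0 in PV-INs and Sst-INs.

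RNA of other cells and depth moved with the condition in these nuclei. Values after subtraction of the estimated RNA and after thinning are given here. Whether either step took out the whole difference was not tested. With the estimated RNA of other cells subtracted the log2 fold change of Dlg1 was 0.59, and with nuclei thinned to 2000 UMIs it was 0.64. Thinning left out the nuclei with fewer UMIs, far more of them from saline than from risperidone. In nuclei called female it was 0.67 and in nuclei called male 0.58. Of 5 GABAergic markers 4 were lower in glutamatergic nuclei after risperidone, with a summed level of 33.3 to 37.8 CPM in the saline lanes and 16.4 to 17.7 CPM in the risperidone lanes. Of 8 oligodendrocyte markers all were lower, from 209 to 221 CPM down to 131 to 137 CPM, and none of these markers was at 0.

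To show the sequence at the start of the member that was higher and of the member that was lower in PV-INs and Sst-INs, the 300 bases from 250 before to 50 after a RefSeq transcription start are printed for Dlg1 and Dlg4 (GRCm38.p6, plus strand). Among the starts listed for each, those with the most GC boxes were chosen, at chr16:31663685-31663984 for Dlg1 and at chr11:70023732-70024031 for Dlg4. Both windows lie inside the annotated gene. Capitals mark the motif letters found, here the GC box, GGGCGG or its reverse complement CCGCCC.
Dlg1: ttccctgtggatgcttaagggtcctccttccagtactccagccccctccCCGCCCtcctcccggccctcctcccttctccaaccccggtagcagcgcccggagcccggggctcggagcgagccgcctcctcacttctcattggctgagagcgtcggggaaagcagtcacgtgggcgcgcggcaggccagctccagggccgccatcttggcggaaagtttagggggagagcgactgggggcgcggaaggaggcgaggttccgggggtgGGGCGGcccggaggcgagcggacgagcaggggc
Dlg4: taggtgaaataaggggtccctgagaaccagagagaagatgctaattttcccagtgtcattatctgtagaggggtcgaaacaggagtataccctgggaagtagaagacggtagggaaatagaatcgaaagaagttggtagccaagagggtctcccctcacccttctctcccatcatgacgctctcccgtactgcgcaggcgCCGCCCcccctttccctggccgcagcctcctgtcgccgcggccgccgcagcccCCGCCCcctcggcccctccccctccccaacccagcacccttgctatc
The Dlg1 window is 71.0% G and C, and the median over all windows is 52.7%. The Dlg1 window was picked for its GC boxes, so this difference is not read further. The Dlg1 and the Dlg4 window each hold 2 GC boxes, for which they were chosen. Of all 32851 RefSeq windows 35.7% hold at least 1. Of the 8 members 7 had a window in the table, with 16 starts between them, and 4 had a GC box at 1 or more starts. The shares over all windows count single starts, so they are not a measure for genes with several. The cAMP response element core TGACGT was in no window of a member and in 7.51% of all windows. The TATA box TATAAA was found for 2 members (13.6% of all windows), at 1 start each of Dlg1 and Dlg2. The NRF1 core GCGCATGC was found for Dlgap4 (2.71% of all windows). All motifs were searched on both strands, and a match is a description of the letters only.

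The Dlg1 difference was present in each of the 7 glutamatergic types, with log2 fold changes from 0.41 in NP nuclei to 0.68 in L2/3 IT nuclei. In L2/3 IT nuclei, which lie near the surface and project within the cortex, Dlg1 stood at 336 and 351 CPM in saline and at 581 and 579.9 CPM in risperidone. L4/5 IT nuclei went from 331 and 335 CPM to 529 and 529 CPM (log2 0.61). L5 ET nuclei, whose axons leave the cortex, went from 258 and 262 CPM to 414 and 409.9 CPM (log2 0.60). In L6 CT nuclei, which project to the thalamus, the log2 fold change was 0.51, as it was in deep-layer IT nuclei. The claustrum-like type (0.49) and NP nuclei fell short of the size rule. Dlg1 in claustrum-like nuclei stood at 257 and 276 CPM in saline and at 401 and 391 CPM in risperidone. The estimated RNA of other cells there averaged 33.9% for saline (lanes 42.1% and 25.7%) and 33.2% for risperidone (lanes 35.7% and 30.7%). Its part in the Dlg1 difference was not tested.

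Of 56 member-type pairs 8 were past the size rule. This is close to the share of all gene-type pairs past it in either direction (6.15% upward and 8.11% downward). The count therefore does not set the members apart. Dlg1 made up the 5 pairs in the upward direction, where 6.15% of all gene-type pairs lay. Under the alternatives run the Dlg1 value stayed at 0.57 or above in L2/3 IT and at 0.53 or above in L4/5 IT nuclei, but with RNA of other cells subtracted Dlg1 was at 0.46 in deep-layer IT and 0.44 in L6 CT nuclei, and with classes from marker UMIs at 0.46 in L5 ET and 0.47 in L6 CT nuclei. Without the first saline lane it was at 0.47 in deep-layer IT and 0.49 in L6 CT nuclei, and without the second risperidone lane at 0.49 in L6 CT nuclei. The 3 pairs in the downward direction, where 8.11% of all gene-type pairs lay, were Dlg4 and Dlgap2 in L5 ET nuclei and Dlgap3 in NP nuclei. Dlg4 in L5 ET nuclei went from 168 and 165 CPM to 118 and 113 CPM (log2 -0.59), and Dlgap2 from 2754 and 2657 CPM to 1925 and 1941 CPM (log2 -0.55). With classes from marker UMIs these values were -0.41 and -0.36, short of the rule, and Dlgap2 was also short of it with plain CPM (-0.48), in male nuclei (-0.42) and relative to genes of like span (-0.42). Dlgap3 in NP nuclei went from 63.9 and 60.3 CPM to 43.4 and 43.9 CPM (log2 -0.59, -0.996 to -0.19), with 130 and 88 UMIs behind the values. The UMIs expected from other cells there came to 0.98 of those counted in saline and 0.56 in risperidone, and in nuclei called male the value was 0.52, of the opposite sign. Dlg2 stayed between -0.05 and 0.08 over the 7 types. Dlg3 lay between -0.32 and -0.14, and Dlgap1 between -0.48 and -0.30.

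**Figure D4:**
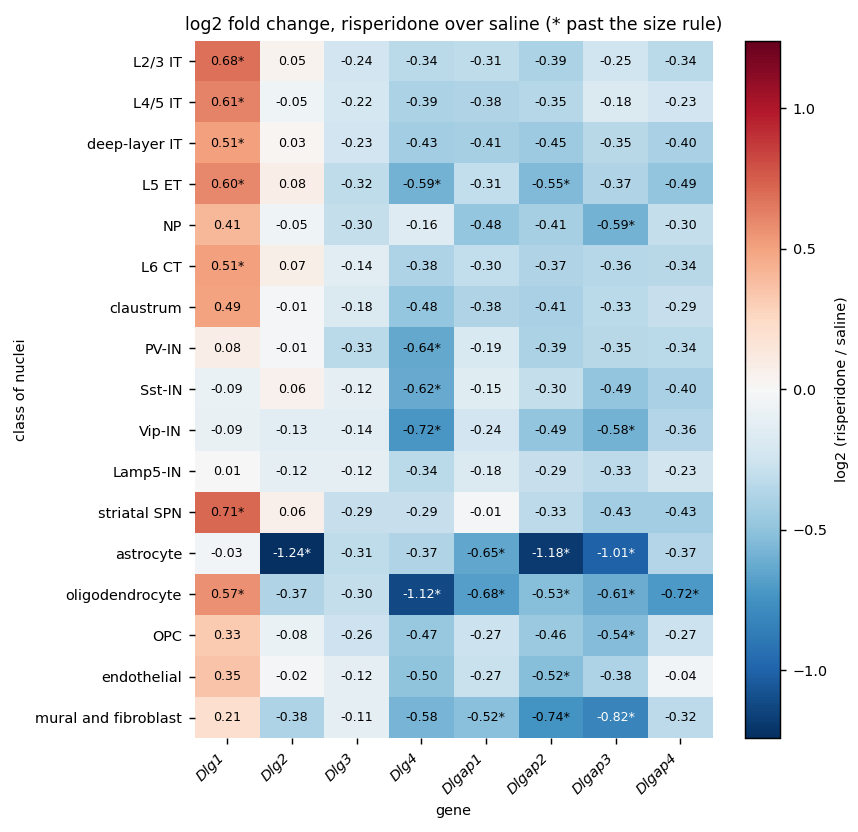
log2 fold change (risperidone over saline) of the 8 members in 17 classes, red for higher and blue for lower values, with an asterisk where past the size rule. The Dlg1 column is red in the glutamatergic types, SPNs and oligodendrocyte-like nuclei and pale in the interneurons. Its values also lie above 0 in OPC-like nuclei and the vascular classes. The columns from Dlg3 to Dlgap4 hold no value above 0.

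In PV-INs and Sst-INs the Dlg1 levels of the conditions overlapped. Dlg1 in PV-INs stood at 173 and 139 CPM in saline and at 177 and 172 CPM in risperidone, a log2 fold change of 0.08 (-0.03 to 0.19). In Sst-INs it stood at 150.5 and 133 CPM in saline and at 132 and 146 CPM in risperidone, a log2 fold change of -0.09 (-0.22 to 0.05). These intervals lie below the 0.62 to 0.65 of glutamatergic nuclei, but they cover counting error only, and the difference between the classes was not tested. Subtraction of the estimated RNA of other cells left -0.02 in PV-INs and -0.03 in Sst-INs.

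Dlg4 was the member past the size rule in these interneurons, in the downward direction. In PV-INs it stood at 95.3 and 81.3 CPM in saline and at 55.9 and 63.7 CPM in risperidone (log2 -0.64, -0.80 to -0.47, from 672 and 553 UMIs). In Sst-INs it stood at 86.5 and 98.7 CPM in saline and at 61.2 and 65.6 CPM in risperidone (log2 -0.62, -0.81 to -0.44, from 531 and 417 UMIs). Dlg4 was 1 of 8 members in each class, where 7.93% of the genes measured in PV-INs and 7.65% in Sst-INs were past the rule downward. No member was past it upward, against 6.71% of genes in PV-INs and 6.24% in Sst-INs. Lanes did not overlap for 6 of 8 members in PV-INs, against 68.7% of the measured genes. The same count, 6 of 8, held for Sst-INs, against 64.5%.

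The Dlg4 values in interneurons were computed again within each called sex. In female nuclei its log2 fold change was -0.70 in PV-INs and -0.69 in Sst-INs, and in male nuclei it was -0.35 and -0.23, short of the size rule. The male values rest on 125 saline and 133 risperidone UMIs in PV-INs and on 104 and 120 UMIs in Sst-INs, and the difference between the sexes was not tested. Of 7 glutamatergic markers 7 were lower in PV-INs (summed level 121 to 139 CPM in the saline lanes, 91.7 to 113 CPM in the risperidone lanes) and 6 in Sst-INs (108 to 112 CPM, then 76.5 to 79.1 CPM). Of 7 astrocyte markers 5 were lower in PV-INs (48.5 to 53.2 CPM, then 22.2 to 24.1 CPM) and 6 in Sst-INs (38.8 to 46.5 CPM, then 17.1 to 23.2 CPM), and Dlg4 had a mean of 99.9 CPM in astrocyte-like nuclei. With the RNA of other cells subtracted the Dlg4 value was -0.61 in PV-INs and -0.56 in Sst-INs. With nuclei classed by their own marker UMIs it was -0.499 in PV-INs, just short of the size rule, and -0.57 in Sst-INs.

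The members other than Dlg1 and Dlg4 had values between -0.49 and 0.06 in these interneurons. Dlgap3 in Sst-INs, at 114 and 119 CPM in saline and 90.2 and 84.9 CPM in risperidone, came closest to the size rule with a log2 fold change of -0.49. Its value was -0.24 with RNA of other cells subtracted and -0.66 in nuclei called female. Dlgap4 had -0.34 in PV-INs and -0.40 in Sst-INs, and -0.17 and 0.066 with RNA of other cells subtracted. Dlgap2, which is high in these cells, went from 4485 and 4504 CPM to 3614 and 3680 CPM in PV-INs (log2 -0.39) and had -0.30 in Sst-INs. In nuclei called female its values were -0.50 in PV-INs and -0.37 in Sst-INs, and in male nuclei -0.15 and -0.16. Dlgap3 in PV-INs went from 118 and 97.3 CPM to 79.2 and 75.3 CPM in female nuclei. In male nuclei it went from 101 and 89.6 CPM to 72.8 and 62.8 CPM. Dlgap1, the most abundant Dlgap gene there, had -0.19 in PV-INs and -0.15 in Sst-INs, and 0.016 and 0.022 relative to genes of like span. Dlg2 had -0.01 in PV-INs and 0.06 in Sst-INs.

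**Figure D5:**
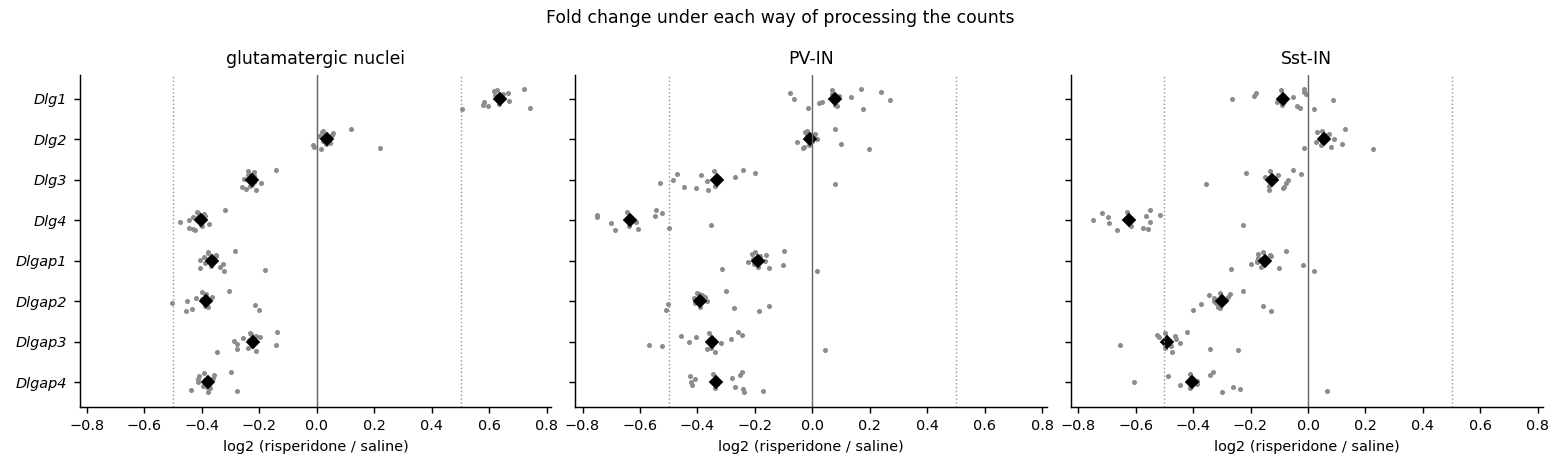
log2 fold change of each member in glutamatergic nuclei, PV-INs and Sst-INs under the reported processing (diamonds) and under each alternative (grey points), with dotted lines at 0.5 and -0.5. Dlg1 in glutamatergic nuclei stays between 0.51 and 0.74; Dlg4 in PV-INs ranges from -0.75 to -0.35.

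Striatal projection neurons are GABAergic neurons of the striatum, and Dlg1 was higher in them after risperidone. Dlg1 stood there at 249 and 264 CPM in saline and at 449 and 443 CPM in risperidone (log2 0.71, 0.62 to 0.80). It was the only member of 8 past the size rule in SPNs, where 6.18% of measured genes were past it upward, and none was past it downward, against 9.03%. In SPN nuclei called male, the value was 0.28. Of 7 glutamatergic markers 3 were lower in SPNs after risperidone, at 116 to 135 CPM in saline and 109 to 126 CPM in risperidone. The estimated RNA of other cells in SPNs averaged 36.4% for saline (lanes 41.4% and 31.3%) and 23.5% for risperidone (lanes 22.0% and 25.0%). The saline lanes held 909 and 866 SPNs, against 449 and 405 with risperidone. The part of either difference in the Dlg1 value was not tested.

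Outside these classes, 17 of 56 member-class pairs were past the size rule in Vip-INs, Lamp5-INs and non-neuronal nuclei. In the downward direction lay 16 pairs, against 11.1% of all gene-class pairs, and in the upward direction 1, against 10.0%. The downward pairs include 1 in OPC-like, 1 in endothelial-like and 3 in mural and fibroblast-like nuclei. They also include Dlg2, Dlgap2 and Dlgap3 in astrocyte-like nuclei. These astrocyte levels are read above as background and the vascular ones not as their own, so the count is not read as a result about the members. At a clustering resolution of 1.0, 18 pairs were past the rule, with all 17 among them. With classes from marker UMIs 3 pairs were, 1 of them among the 17, and with RNA of other cells subtracted 9 were, 4 of them among the 17. In Vip-INs Dlg4 went from 97.0 and 104 CPM to 68.4 and 60.9 CPM (log2 -0.72) and Dlgap3 from 176.5 and 176.4 CPM to 129 and 120.03 CPM (log2 -0.58). In the same nuclei 4 of 7 glutamatergic markers were lower (126 to 136 CPM in the saline lanes, 78.7 to 130 CPM in the risperidone lanes, none at 0), and the estimated RNA of other cells was 30.2% in saline and 21.7% in risperidone. With classes from marker UMIs the Dlg4 value was -0.48. In Lamp5-INs no member was past the rule. Dlg1 in OPC-like nuclei went from 245 and 254 CPM to 317 and 353 CPM, short of the rule. In endothelial-like nuclei, whose levels are not read as their own, it went from 302 and 295 CPM to 399 and 381 CPM. In oligodendrocyte-like nuclei Dlg1 went from 441 and 497 CPM to 742 and 760.3 CPM (log2 0.57, 0.45 to 0.68), 1 of 8 members upward against 11.0% of measured genes there, and 5 of 8 were downward against 15.0%. These were Dlg4 (log2 -1.12), Dlgap1 (-0.68), Dlgap2 (-0.53), Dlgap3 (-0.61) and Dlgap4 (-0.72). At a clustering resolution of 1.0 the same 5 had -1.63, -1.55, -1.51, -1.30 and -0.95. For Dlgap2 and Dlgap3 among these 5 more UMIs were expected from other cells than were counted, in both conditions. The estimated RNA of other cells in the class was 47.2% in saline and 38.9% in risperidone. Of 7 glutamatergic markers 6 were lower there (201 to 205 CPM in the saline lanes, 151 to 167 CPM in the risperidone lanes). Of 5 GABAergic markers 1 was lower (143 to 152 CPM, then 158 to 167 CPM). With a floor of 2000 UMIs per nucleus the values were -0.18 for Dlgap1, -0.077 for Dlgap2, -0.058 for Dlgap3 and -0.28 for Dlgap4, short of the rule, and -0.65 for Dlg4 and 0.63 for Dlg1. The class joins 3 clusters, of which the one with Bcas1, Enpp6 and Tns3 among its top genes held 134 and 153 nuclei in the saline lanes (of 342 and 365) and 127 and 115 in the risperidone lanes (of 547 and 595). With the 3 weighted equally Dlg1 was at 0.53.

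In astrocyte-like nuclei 4 of 8 members were past the size rule downward, against 14.1% of measured genes, and none upward, against 8.32%. Dlg2 went from 2497 and 2685 CPM to 1218 and 1147 CPM (log2 -1.24) and Dlgap2 from 483 and 473 CPM to 217 and 233 CPM (log2 -1.18). Dlgap1 (-0.65) and Dlgap3 (-1.01) were the others. In the same nuclei the estimated share of RNA of other cells was 46.3% in saline and 31.7% in risperidone. This estimate is too high for Dlg2, Dlgap2 and Dlgap3, for which it expects more UMIs than were counted. The summed level of 7 glutamatergic markers, 5 of them lower, was 147 to 160.0 CPM in the saline lanes and 108 to 118 CPM in the risperidone lanes, and none was at 0. When each nucleus was classed by its own marker UMIs, all 4 members had values of the opposite sign, 0.37 for Dlg2, 0.28 for Dlgap2, 0.011 for Dlgap1 and 0.29 for Dlgap3, so no direction is given for them. Dlg1 in astrocyte-like nuclei had a value of -0.03.

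Shares of nuclei with a UMI followed the levels in neurons. After thinning to 2000 UMIs, which left out 4373 saline and 307 risperidone nuclei, 44.1% of the glutamatergic nuclei of saline (43.5 to 44.7%, exact binomial) held a Dlg1 UMI, as did 15622 of the 26037 nuclei of risperidone (59.4 to 60.6%). The unthinned shares were 65.1% and 91.2%. In PV-INs the thinned shares were 27.4% (25.3 to 29.7%) and 26.5% (24.1 to 28.9%). In endothelial-like nuclei, where 0.81 of the Dlg1 UMIs of saline were expected from other cells, they were 40.6% (32.2 to 49.5%) and 55.9% (47.6 to 64.0%). The shares in PV-INs lie below these, and no difference is read from them. The glutamatergic share of each condition lies within the endothelial interval of the same condition. No rise above that background is read from the shares. Dlg4 was found in 22.6% (22.1 to 23.1%) of thinned glutamatergic nuclei of saline and 18.4% (17.9 to 18.9%) of risperidone, and in 16.2% (14.5 to 18.1%) and 11.3% (9.64 to 13.1%) of PV-INs. No background share is given for Dlg4, and no difference is read from its shares. Dlg2 was found in 27804 of 27805 thinned glutamatergic nuclei of saline and in 26034 of 26037 of risperidone. All intervals cover counting error only.

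Dlg3, the X-linked member, was compared between nuclei called female and male. In glutamatergic nuclei the female level was 48.8 and 47.2 CPM in the saline lanes and 44.5 and 43.2 CPM in the risperidone lanes, and the male level was 49.9 and 49.5 CPM, then 46.7 and 44.7 CPM. The log2 ratio of female over male lay between -0.07 and -0.03 in the 4 lanes. In PV-INs, with 39 to 113 UMIs per sex and lane, it ran from -0.52 to 0.58, and in Sst-INs, with 27 to 75 UMIs, from -0.73 to 0.44, with lanes on both sides of 0 in each class. Its log2 fold change after risperidone was below 0 in each of the 19 classes and sums of classes compared, from -0.33 to -0.11, and it was past the size rule in none.

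Gene span moved with the fold changes of all genes. With genes divided by span into 10 groups of like number, the median log2 fold change in glutamatergic nuclei was 0.06 in the group of the shortest genes and -0.19 in that of the longest, to which Dlg2, Dlgap1 and Dlgap2 belong. Relative to genes of like span Dlg1, in the next longest group with a median of -0.10, had a value of 0.74, Dlgap1 -0.18 and Dlgap2 -0.20. Dlg4, among the shorter genes, had -0.43, and Dlg2 had 0.22.

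The partner lists hold 73 genes of the same complex, and they were chosen with earlier results of these data known. In glutamatergic nuclei 60 were measured, of which 9 were past the size rule downward and 2 upward, against 7.27% and 4.22% of all measured genes. Their median log2 fold change was -0.21, against -0.02 over all genes. The 2 upward were Homer1 (log2 0.77), which cross-links Shank to metabotropic glutamate receptors, and Cnksr2 (0.62), a scaffold of Ras signalling. Among the other MAGUK and PDZ scaffolds Dlg5 (-0.75), Grip1 (-0.71) and Grip2 (-0.53) were downward, 3 of 13 measured. Of 5 Shank and Homer genes Shank1 (-0.71) was downward. Of 20 receptors and adhesion proteins Erbb4 (-1.42), Nlgn2 (-0.59) and Cacng8 (-0.56) were downward; Erbb4, a neuregulin receptor, is a marker of PV-INs. Of 22 signalling proteins Agap2 (-0.93) and Begain (-0.63) were downward.

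In PV-INs 9 of 62 measured partner genes were past the rule downward and 0 upward, against 7.93% and 6.71% of all measured genes, with a median of -0.22, against -0.01 over all genes. They included Shank1 (-0.68), Shank2 (-0.58), the AMPA receptor auxiliary subunit Cacng2 (-0.60), the adhesion protein Lrfn2 (-0.53), Nos1 (-0.65), Begain (-0.82), Camk2b (-0.55) and Agap2 (-1.14). In Sst-INs 10 of 60 were downward and 0 upward, against 7.65% and 6.24%, with a median of -0.24, against -0.02. These were Shank1 (-0.70), Shank2 (-0.54), Shank3 (-0.52), Cacng2 (-0.61), Nlgn2 (-0.59), Lrfn2 (-0.54), Camk2b (-0.59), Ptk2b (-0.86), Baiap2 (-0.85) and Agap2 (-0.90). None of the other MAGUK and PDZ scaffolds was past the rule in either interneuron class, where 13 were measured.

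Over all listed nuclei of a lane Dlg1 stood at 278 and 282 CPM in saline and 446 and 444 CPM in risperidone (log2 0.55). It was 1 of 8 members past the size rule upward, against 3.03% of the 7519 genes measured, and 0 of 8 were past it downward, against 7.83%. The remaining values ran from -0.45 for Dlg4 to 0.0021 for Dlg2. A change in the mix of cells and a change of RNA per cell cannot be told apart in these sums.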

How the data were processed

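Matrices of UMI counts for 4 lanes were used. Per the labels and the study's methods, the authors made these counts with Cell Ranger 8.0.1 on mm10 (GENCODE vM23), counting intronic reads, and deposited the filtered matrices. Nuclei with under 500 genes or over 5% mitochondrial UMIs were left out, and 11940 of 108493 nuclei that scored highest against simulated doublets, a share set by the loading of each lane, were removed as doublet-like. Clustering used 2000 variable genes without the members, 30 principal components, 20 neighbours and Louvain resolution 0.5. Clusters led by a non-neuronal class but rich in Camk2a were divided again, which gave 55 clusters. Classes were named from marker lists, with score limits set after the marker levels of clusters were seen, and 15731 nuclei stayed unclassed. The members and lists were chosen with earlier results of these data known.

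UMIs were summed per class and lane and scaled by TMM (checked against edgeR 4.0.16). The size rule was tried on simulated counts with counting error only, which do not hold other differences between the pools. Intervals are exact conditional binomial, exact Poisson or Clopper-Pearson at 95% and cover counting error only. No test was run, since a condition has 1 pool. RNA of other cells was estimated as the median ratio of observed UMIs of foreign markers to those expected from the lane total. Named genes were the 8 members, the 3 genes most like each, overlapping genes with 100 UMIs or more, and partner genes past the size rule in glutamatergic nuclei, PV-INs or Sst-INs; some of these genes are not reported here. Alternatives were plain CPM, median-of-ratios factors, a minimum of 1 or 50 CPM, a log2 fold of 0.3, each lane left out, a floor of or thinning to 2000 UMIs, doublet-like nuclei kept, resolution 1.0, classes from marker UMIs, equally weighted clusters, RNA of other cells subtracted, each sex, and a correction for gene span. Promoter windows are RefSeq's.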

Additional observations from a re-analysis of the deposited data

Results flagged for a closer look

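With the reported classes Dlg2 lay on opposite sides of 0 in L5 ET and astrocyte-like nuclei, in every pair of lanes. In L5 ET nuclei its log2 fold change was 0.078 and in astrocyte-like nuclei -1.24. The difference between the classes was not tested. With classes from marker UMIs both values turned, to -0.042 and 0.37, so no direction is given. In astrocyte-like nuclei the UMIs expected from other cells exceeded the Dlg2 UMIs counted in both conditions.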

How the results depend on the processing

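No paired analysis was possible because the replicate numbers are lanes of different pools and no test was run. Leaving out each lane in turn gave 1 to 1 member past the size rule in glutamatergic nuclei, PV-INs and all nuclei, 1 to 2 in Sst-INs, 7 to 11 pairs in the layer types and 17 to 22 in the other classes; 2 in Sst-INs came without Saline replicate 1 and without Risperidone replicate 1. Nuclei called female gave 2 members in glutamatergic nuclei, 4 in PV-INs, 2 in Sst-INs, 2 in all nuclei and 13 layer pairs. Male nuclei gave 0 in Sst-INs and 1 in PV-INs, which was not Dlg4. A log2 fold of 0.3 gave 5, 5, 3 and 5 members and 37 and 32 pairs. Classes from marker UMIs gave 0 members in PV-INs, 5 layer pairs and 3 other pairs. Thinning gave 3 members in Sst-INs and 13 layer pairs, the floor of 2000 UMIs 9 other pairs and the span correction 11 other pairs. Subtraction of RNA of other cells gave 2 members in PV-INs and 9 other pairs; it could not be applied to all nuclei, and values with under 10% of the UMIs left were dropped. Equal weights apply only to classes of several clusters. Shares over all genes are given for the reported processing only, so these counts are not set against any. The causes were not tested.

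Values past the rule that turned sign were Dlgap3 in NP nuclei in male nuclei (0.52) and, with classes from marker UMIs, Dlg2 (0.37), Dlgap1 (0.011), Dlgap2 (0.28) and Dlgap3 (0.29) in astrocyte-like nuclei, Dlgap3 in OPC-like nuclei (0.058), and Dlgap1 (0.36), Dlgap2 (0.10) and Dlgap3 (0.21) in mural and fibroblast-like nuclei. Plain CPM moved the members' log2 values by a median of 0.08. Dlg3 and Dlg4 in interneurons are limited by their few UMIs.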

Other observations

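Some transcripts overlap the members on the opposite strand. The study's methods name Cell Ranger with default settings, which count sense reads. Within Dlgap1, Gm41609 had 1243 saline and 4300 risperidone UMIs in glutamatergic nuclei, a log2 fold change of 1.25 (1.16 to 1.34). It was past the size rule there, in PV-INs (1.28) and in Sst-INs (1.37). Of all measured genes 4.22%, 6.71% and 6.24% were past the rule upward in these classes. Also within Dlgap1, 5031415H12Rik had 198 and 909 UMIs (log2 1.66, 1.43 to 1.88). Within Dlg2, 4930567K12Rik had 382 and 1581 UMIs (log2 1.51, 1.34 to 1.67), and overlapping Dlgap4, 4930405A21Rik had 316 and 1132 UMIs (log2 1.30, 1.12 to 1.48). C030037F17Rik, overlapping Dlgap2, had 9 and 57 UMIs. These 4 had a mean under 10 CPM and so could not pass the rule. Gm45159, which lies inside Dlg2 on its own strand, had 11939 and 16799 UMIs and a log2 fold change of -0.05 (-0.08 to -0.02). Opposite-strand transcripts of other genes were not compared, so nothing particular to the members is read from these values.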
